A study of Mus musculus with 6 samples.

Results

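The RNA of 10 genes for SR splicing factors, Srsf1, Srsf2, Srsf3, Srsf4, Srsf5, Srsf6, Srsf7, Srsf11, Tra2a and Tra2b, was described isoform by isoform in mouse medulloblastoma, a malignant tumour of the cerebellum. Members were every transcript whose gene symbol equals a listed gene, which gave 69 of 131100 transcripts and 10 of 52550 genes. Of the 69 transcripts, 24 were annotated protein_coding, 14 nonsense_mediated_decay, 26 retained_intron and 5 of other kinds. The 40 transcripts of the nonsense_mediated_decay and retained_intron kinds are called nonproductive here, after their annotation and not after any measurement of protein. RNA-seq libraries came from medulloblastoma samples, 3 labelled wild type for Eed and 3 labelled mutant. They are called wild-type and mutant tumours below, without a claim that each is a separate tumour. Eed encodes a subunit of the Polycomb complex PRC2, an enzyme that methylates histones at silenced developmental genes. The Eed allele, the Cre or other driver, the tumour model and the age of the mice are not given in the sources used. No label states whether each sample is from its own tumour or animal. All p-values therefore measure only the spread between these samples, which may be technical. Values below run in the order of replicates 1, 2 and 3, wild type before mutant.

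SR proteins carry an RNA-binding domain and a stretch rich in arginine and serine, and they recruit the spliceosome to exons. SR protein genes are known for ultraconserved elements at which alternative splicing inserts a poison exon, an exon with an early stop codon, or leaves an intron in the RNA. A stop codon well upstream of the last exon junction marks an RNA for nonsense-mediated decay, RNAs that keep an intron are often held in the nucleus, and several SR proteins promote the nonproductive splicing of their own RNA in a feedback loop. The Tra2 proteins are relatives that bind GAA-rich RNA.

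The annotated structures were read from GENCODE M21 on GRCm38, in which 63 of the 69 transcripts have the version used in the files. In all 14 nonsense_mediated_decay transcripts the stop codon lay more than 50 bases before the last exon junction, against 1 of the 22 protein_coding transcripts with an annotated stop (Srsf2-206). The decay label is itself given from the position of the stop codon, so this contrast describes the annotation and is no measurement. The stretches below run from the start of the premature-stop exon to the stop codon, in capitals. They are shown because these exons hold the stop codon of the most abundant decay transcript of 6 genes. The stop-containing exons of Srsf1-204, Srsf2-204 and Srsf5-208 overlap exons of 2 or more protein_coding transcripts and are not printed. The exons of Tra2a, Tra2b, Srsf3, Srsf4 and Srsf11 are absent from every protein_coding transcript of their gene. The Srsf6 exon overlaps the short protein_coding transcript Srsf6-202. Other nonproductive forms share some of these exons. The Srsf11 exon also lies in the decay form Srsf11-206 and within a longer exon of the retained_intron form Srsf11-203. Introns kept by Srsf3-204 and Srsf6-204 contain the Srsf3 and Srsf6 exons. Exons of Srsf3-203 and Tra2b-203 begin at the same base as those of Srsf3 and Tra2b and run on. Sequences were taken from the GENCODE M21 transcripts on GRCm38, 5′ to 3′ on the gene's strand.
Tra2a-202 exon 2, chr6:49252965-49253108, minus strand: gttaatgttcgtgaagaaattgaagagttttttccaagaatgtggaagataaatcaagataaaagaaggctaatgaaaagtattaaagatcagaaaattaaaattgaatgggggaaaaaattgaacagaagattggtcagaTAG
Tra2b-206 exon 2, chr16:22259181-22259261, minus strand: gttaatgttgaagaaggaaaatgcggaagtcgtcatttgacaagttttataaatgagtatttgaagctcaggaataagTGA
Srsf3-201 exon 4, chr17:29039454-29039487, plus strand: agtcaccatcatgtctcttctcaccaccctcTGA
Srsf6-201 exon 3, chr2:162932815-162932966, plus strand: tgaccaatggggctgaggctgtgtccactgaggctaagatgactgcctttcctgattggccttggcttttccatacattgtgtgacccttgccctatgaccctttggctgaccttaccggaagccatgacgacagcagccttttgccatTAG
Srsf4-204 exon 1, chr4:131884295-131884390, plus strand: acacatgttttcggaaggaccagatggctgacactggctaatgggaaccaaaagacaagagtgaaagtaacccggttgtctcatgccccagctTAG
Srsf11-210 exon 3, chr3:158024209-158024231, minus strand: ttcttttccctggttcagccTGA

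The Tra2a exon spans chr6:49252803-49253108 (306 bases) and the Tra2b exon chr16:22258986-22259261 (276 bases). Both are exon 2 of their transcript, and their first 9 bases are identical. Their GC content was 30.1% and 32.6%, against 51.3% in the Srsf3 exon, 50% in Srsf6, 48.9% in Srsf4 and 43.1% in Srsf11. The stop-containing exons that are not printed had 37.0% (Srsf1), 53.0% (Srsf2) and 48.5% (Srsf5). The 6-letter motif GAAGAA occurred 4 times in the Tra2a exon and 3 times in the Tra2b exon, overlapping matches included, 1 time in the Srsf2-204 exon, and 0 times in the exons of Srsf1, Srsf3, Srsf4, Srsf5, Srsf6 and Srsf11, all on the transcript's strand. On the opposite strand it matched 1 time each in the Srsf2, Srsf3 and Srsf11 exons and 0 times in the other 6. Among all internal exons within 10% of the same length, 23.4% (Tra2a) and 21.9% (Tra2b) hold it on the transcript's strand. A match describes the letters of the exon and is not a measured binding site. The Srsf3 exon spans chr17:29039454-29039909 (456 bases), the Srsf6 exon chr2:162932815-162933082 (268 bases), the Srsf4 exon chr4:131884295-131884482 (188 bases) and the Srsf11 exon chr3:158024123-158024231 (109 bases). The transcript Srsf4-204 begins with its exon. In the other decay form, Srsf4-203, which starts further upstream, the exon spans chr4:131884276-131884482 (207 bases). The printed Srsf4 stretch therefore lacks the first bases of that longer exon. The M21 versions of Srsf3-201 and Tra2b-206 are later than those in the files, at 2594 against 1919 bases and 1687 against 1590 bases, so these exons may differ from the model that was quantified.

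The libraries were alike in depth, at 26186236 to 26425111 estimated counts. Eed RNA itself stood at 43.8, 30.1 and 35.6 CPM in the wild-type and 32.6, 36.8 and 30.7 CPM in the mutant tumours, with overlapping groups, so the gene's count does not check the labels. Markers of mature cerebellar cells were on average higher in the wild-type libraries: the summed level of 13 oligodendrocyte markers was 775 to 1689.6 CPM in wild type and 581 to 665 CPM in mutant tumours, and that of 11 markers of differentiated granule neurons 903 to 1476 and 747 to 959 CPM. The 9 Purkinje cell markers summed to 691 to 1113 and 471 to 653 CPM, all these lists being on average lower in the mutant tumours. Summed markers of vessels and muscle were higher in each mutant library, as the members were on average: 8 endothelial markers summed to 156 to 190.4 CPM in wild type and 205 to 223 CPM in mutant tumours, 8 pericyte and smooth muscle markers to 197 to 233 and 247 to 287 CPM, and 9 skeletal muscle markers to 55.8 to 104 and 130 to 387 CPM. Single markers did not all follow the sums. Log2 differences were above 0 for 8 of 8 endothelial, 6 of 8 pericyte and smooth muscle and 9 of 9 skeletal muscle markers. They were also above 0 for 2 of 13 oligodendrocyte, 1 of 11 granule neuron and 0 of 9 Purkinje markers. The pericyte marker Kcnj8 was lower in each mutant library, and the groups of the muscle marker Myod1 overlapped. The 17 markers of granule progenitors and medulloblastoma, among them Atoh1, Barhl1 and Gli1, were all detected and summed to 8003 to 8769.7 and 8125 to 9285 CPM. Wild-type replicate 2 was highest for the oligodendrocyte, granule neuron and Purkinje lists and lowest for the progenitor list, and no listed marker was at 0 in all libraries. The part these markers play in the results below was not tested. In bulk tissue, fewer cells of a type and less RNA per cell cannot be told apart.

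Total RNA of all 10 genes, all isoforms together, was on average higher in the Eed mutant tumours, by small amounts, and none passed the test. Log2 differences ran from 0.09 (Srsf7) to 0.34 (Tra2b) with a median of 0.18, beside a median of -0.01 over the 19145 genes tested, of which 48.6% were above 0. All 10 stayed above 0 under each of 13 alternative settings, scalings included. At an adjusted p under 0.05 the edgeR quasi-likelihood test called 0 members and 0 of 19145 genes (0%). At an unadjusted p under 0.05 it listed 5 members, Srsf1, Srsf4, Srsf6, Tra2a and Tra2b, all higher, against 18.1% of all genes in either direction and 9.29% in the higher direction. That count changed when a library was left out, which also leaves fewer samples. It became 1 without replicate 1 or 2 of either genotype, 4 without mutant replicate 3 and 8 without wild-type replicate 3. In those fits 5.02% to 10.1% of all genes were higher at an unadjusted p under 0.05. A replicate block gave 1, beside 9.72% of all genes, and a term for the file code gave 0, beside 7.95%. DESeq2 called 1 member, Tra2b, against 5.22% of 17679 genes in either direction and 2.96% in the higher direction. Wild-type replicate 2 had the lowest level of 8 members and wild-type replicate 1 of the other two, and the highest level was always in a mutant library. Without wild-type replicate 2, the library highest in summed oligodendrocyte and differentiated granule neuron markers, the differences ran from 0.0229 (Srsf7) to 0.32 (Tra2b).

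Tra2b, which directs inclusion of exons rich in GAA elements, showed the largest difference. Its levels were 295, 302 and 329.9 CPM in the wild-type and 422, 399 and 350.0 CPM in the mutant tumours, in library-scaled counts with TMM factors (CPM), and the groups did not overlap. The log2 difference was 0.34 (SE 0.0891, 95% interval 0.13 to 0.55, edgeR adjusted p = 0.159), with a DESeq2 adjusted p of 0.0361 and a range of 0.0361 to 0.492 over the alternatives. Its paralogue Tra2a was at 217, 217 and 238 CPM in the wild-type and 276, 255 and 241 CPM in the mutant tumours (log2 difference 0.20, SE 0.0745, edgeR adjusted p = 0.236). The Tra2a groups also did not overlap, with wild-type replicate 3 and mutant replicate 3 close together.

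Among the classical SR proteins, Srsf1, a general splicing activator that shuttles between nucleus and cytoplasm, stood at 867, 789 and 916 CPM in the wild-type and 1011, 1047 and 928 CPM in the mutant tumours (log2 difference 0.22, SE 0.0878, edgeR adjusted p = 0.265). Srsf6, a regulator of alternative exons, stood at 537, 492 and 592 CPM in the wild-type and 659, 624 and 597 CPM in the mutant tumours (log2 difference 0.21, SE 0.0888, edgeR adjusted p = 0.269). Srsf4, the longest of the classical SR proteins, stood at 121, 122 and 128 CPM in the wild-type and 139, 145 and 132 CPM in the mutant tumours (log2 difference 0.16, SE 0.0598, edgeR adjusted p = 0.235). In these 3 genes each mutant library was above each wild-type library, in Srsf1 and Srsf6 by a narrow margin between wild-type replicate 3 and mutant replicate 3. Srsf11, an SR-related protein, stood at 432, 393 and 439 CPM in the wild-type and 475, 440.5 and 441 CPM in the mutant tumours (log2 difference 0.10, SE 0.0735, edgeR adjusted p = 0.487), with non-overlapping groups that nearly touched. In all, 6 of 10 members had non-overlapping groups, beside 13.1% of all genes tested in the higher direction and 25% in either direction.

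The remaining 4 genes had overlapping groups. Srsf2, a component of nuclear speckles, stood at 438, 406 and 483 CPM in the wild-type and 512, 521 and 468 CPM in the mutant tumours (log2 difference 0.18, SE 0.0870, edgeR adjusted p = 0.327). Srsf3, the smallest classical SR protein and a factor in mRNA export, stood at 522, 507 and 583 CPM in the wild-type and 668, 595 and 573 CPM in the mutant tumours (log2 difference 0.19, SE 0.0908, edgeR adjusted p = 0.325). Srsf5 stood at 456, 419 and 499.9 CPM in the wild-type and 513, 492 and 514 CPM in the mutant tumours (log2 difference 0.14, SE 0.0814, edgeR adjusted p = 0.387). In each of these genes wild-type replicate 3 reached into the mutant range. Srsf7, like Srsf3 an adaptor of mRNA export, stood at 293, 259 and 305 CPM in the wild-type and 313, 311 and 286 CPM in the mutant tumours (log2 difference 0.09, 95% interval -0.10 to 0.28), and is the gene with the smallest difference.

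**Figure D1:**
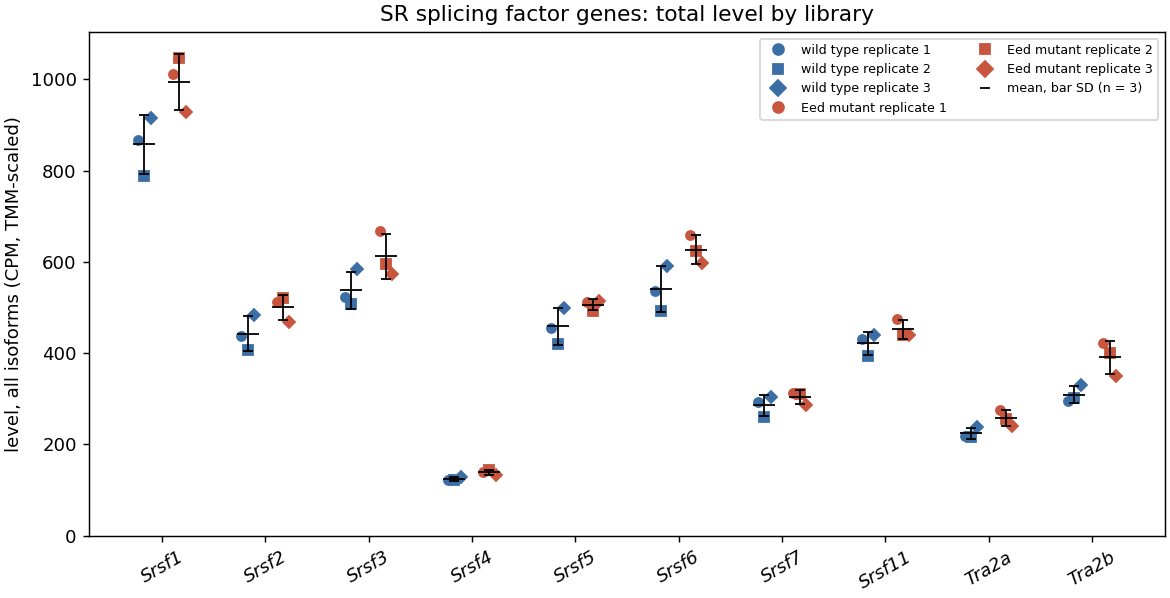
Level of each SR splicing factor gene in CPM (TMM-scaled, all isoforms) in every library, with wild-type tumours in blue and Eed mutant tumours in red, a marker shape for each replicate number, and the mean with its SD in black. Mutant means are above wild-type means for all 10 genes, and Tra2b has the largest log2 difference (0.34).

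Levels of different genes were compared in TPM, which divides by transcript length. The order of the mean over 6 libraries was Srsf1 (743 TPM), Srsf3 (597), Srsf2 (524), Srsf5 (499.9), Srsf11 (460.0), Srsf6 (341), Tra2b (321), Srsf7 (263), Tra2a (231) and Srsf4 (105). Only Srsf11 and Srsf6, and Tra2a and Srsf4, had ranges over the 6 libraries that did not overlap among neighbours in this order. Summed over the 10 genes, protein_coding transcripts made up 54.5, 53.8 and 54.98% of TPM in the wild-type and 55.4, 55.4 and 53.8% in the mutant tumours. Decay transcripts made up 10.3, 9.88 and 9.60% in the wild-type and 9.91, 9.80 and 10.5% in the mutant tumours, and retained_intron transcripts 33.5, 32.6 and 34.1% in the wild-type and 32.5, 31.5 and 32.7% in the mutant tumours. The groups overlapped for each class of the summed output. In TPM, the summed decay transcripts reached 394, 359 and 395 TPM in the wild-type and 435, 427 and 440.3 TPM in the mutant tumours, without overlap, as did the summed output of all isoforms at 3828, 3635 and 4116 TPM in the wild-type and 4389.8, 4359 and 4194 TPM in the mutant tumours.

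Several of these genes had most of their estimated RNA in nonproductive isoforms. Srsf3, Srsf11 and Tra2a had more than 50% of their TPM there in all 6 libraries, as did 596 of the 6008 genes (9.92%) for which the share was tested. The nonproductive share averaged over 6 libraries was 76.4% in Srsf11, 67.8% in Srsf3, 59.6% in Tra2a, 46.7% in Srsf1, 41.1% in Srsf6, 37.1% in Srsf5, 22.4% in Srsf2, 18.2% in Srsf4 and 14.7% in Tra2b. Srsf7 has only 1 transcript in the files, a protein_coding one, and no share could be taken. Over all 6008 genes the median share was 18.2% to 18.9% in each library. The share depends on the unit for genes whose nonproductive transcripts are short, 19 of the 40 being under 1000 bases.

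**Figure D2:**
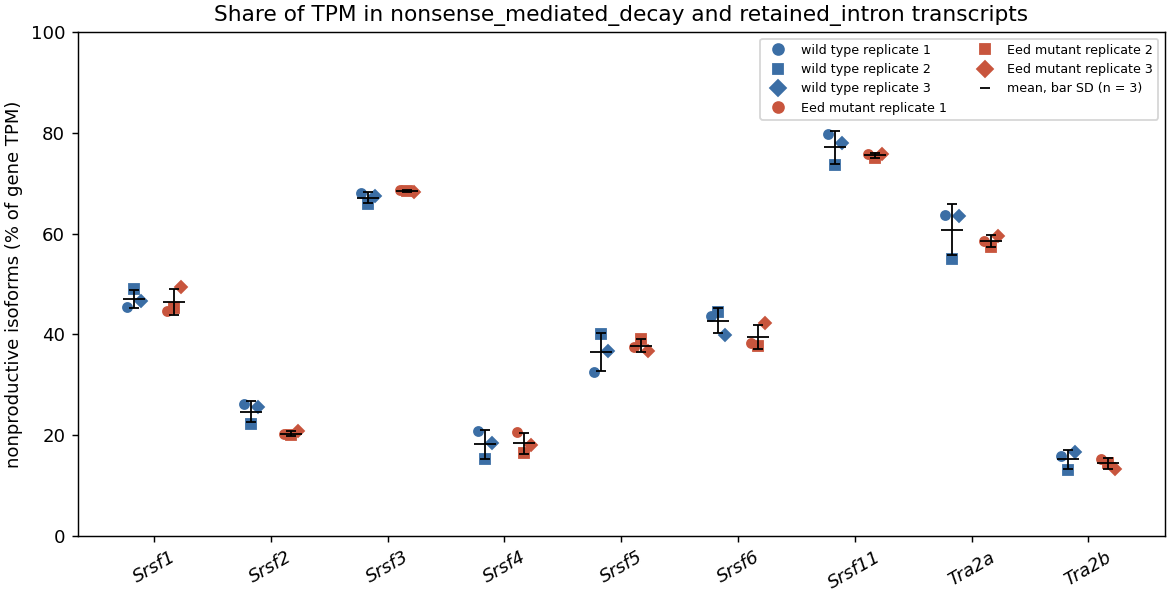
Share of each gene's TPM in nonsense_mediated_decay and retained_intron transcripts in every library (percent), wild type in blue and Eed mutant in red, with the mean and SD in black. Srsf11, Srsf3 and Tra2a lie above 50% in all libraries, the Srsf2 mutant libraries lie below its wild-type ones, and the Srsf3 groups are apart by 1.29 percentage points of their means.

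Tra2a lies at chr6:49243924-49264033 on the minus strand. Its most abundant transcript was the poison-exon form shown above: Tra2a-202 (nonsense_mediated_decay, 2090 bases) stood at 124, 107 and 133 TPM in the wild-type and 138, 126 and 129.8 TPM in the mutant tumours. The main coding form was lower in every library. Tra2a-201 (protein_coding, 1799 bases) stood at 48.8, 76.4 and 64.9 TPM in the wild-type and 76.5, 75.1 and 73.6 TPM in the mutant tumours. Tra2a-204 (protein_coding, 1777 bases) stood at 27.6, 19.8 and 18.7 TPM in the wild-type and 30.05, 28.3 and 20.8 TPM in the mutant tumours. Wild-type replicate 1 had the lowest level of Tra2a-201 and wild-type replicate 2 the lowest of Tra2a-202. The intron-keeping forms were minor. Tra2a-205 (retained_intron, 3040 bases) stood at 7.38, 6.74 and 8.22 TPM in the wild-type and 7.66, 7.88 and 6.50 TPM in the mutant tumours. It keeps an intron of 1238 bases before the stop codon. Tra2a-203 (retained_intron, 3788 bases) stood at 3.05, 3.60 and 4.69 TPM in the wild-type and 4.93, 5.31 and 2.99 TPM in the mutant tumours. The nonproductive share of Tra2a was 63.7, 54.9 and 63.5% in the wild-type and 58.6, 57.4 and 59.6% in the mutant tumours (log2 difference -0.13 with a 95% interval of -0.55 to 0.29, limma adjusted p = 0.924). Its decay share alone was 58.8, 50.01 and 57.9% in the wild-type and 53.7, 51.9 and 55.5% in the mutant tumours. In both measures wild-type replicate 2 was lowest, wild-type replicates 1 and 3 were highest, and the mutant libraries lay between.

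Tra2b lies at chr16:22244549-22266005 on the minus strand and, unlike its paralogue, was mostly coding. Tra2b-201 (protein_coding, 1369 bases) stood at 121, 140.1 and 137 TPM in the wild-type and 169.8, 164 and 148 TPM in the mutant tumours. Tra2b-204 (protein_coding, 3403 bases) stood at 106, 107 and 117 TPM in the wild-type and 145, 143 and 126 TPM in the mutant tumours. For both coding forms each mutant library was above each wild-type library. Tra2b-204 had the smallest adjusted p of all member transcripts (log2 difference 0.37, SE 0.0861, edgeR adjusted p = 0.376). It was the only 1 of 66 member transcripts that DESeq2 called, beside 927 of all 95936 transcripts fitted. Its DESeq2 adjusted p was 0.0109, with a range of 0.0109 to 0.784 over the alternatives. Its poison-exon form was lower. Tra2b-206 (nonsense_mediated_decay, 1590 bases) stood at 25.7, 18.1 and 30.8 TPM in the wild-type and 35.7, 30 and 26.8 TPM in the mutant tumours. Tra2b-203 (retained_intron, 1376 bases) stood at 13.1, 14.5 and 15.6 TPM in the wild-type and 13.8, 13.6 and 12.6 TPM in the mutant tumours. Tra2b-205 (retained_intron, 668 bases) stood at 4.76, 4.90 and 4.50 TPM in the wild-type and 8.01, 8.94 and 2.47 TPM in the mutant tumours. An exon of Tra2b-203 begins at the same base as the poison exon and runs on into the intron, to 1198 bases. A form without a coding annotation was rare. Tra2b-202 (processed_transcript, 946 bases) stood at 3.46, 3.54 and 3.14 TPM in the wild-type and 3.25, 3.42 and 2.06 TPM in the mutant tumours. The nonproductive share was 15.9, 13.02 and 16.5% in the wild-type and 15.3, 14.5 and 13.2% in the mutant tumours (log2 difference -0.0884 with a 95% interval of -0.52 to 0.35, limma adjusted p = 0.962), with overlapping groups. Its retained_intron share was 6.51, 6.74 and 6.53% in the wild-type and 5.80, 6.22 and 4.76% in the mutant tumours, lower in each mutant library (exact permutation p = 0.1, two-sided, the smallest that 3 against 3 allow; limma adjusted p = 0.824).

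Srsf3 lies at chr17:29032628-29043373 on the plus strand. Its most abundant transcript was annotated as keeping an intron. Srsf3-205 (retained_intron, 910 bases) stood at 253, 188 and 287 TPM in the wild-type and 337, 278 and 288 TPM in the mutant tumours. Srsf3-202 (protein_coding, 2566 bases) stood at 175, 168 and 201 TPM in the wild-type and 219, 194 and 194 TPM in the mutant tumours. Srsf3-204 (retained_intron, 3986 bases) stood at 80.2, 82.8 and 86.6 TPM in the wild-type and 90.1, 84.4 and 80.3 TPM in the mutant tumours. Srsf3-204 keeps introns of 2150 and 393 bases, both before the stop codon of Srsf3-202. Srsf3-201 (nonsense_mediated_decay, 1919 bases) stood at 40.1, 55.7 and 42.95 TPM in the wild-type and 51.1, 59.5 and 47.2 TPM in the mutant tumours. It carries the poison exon, and wild-type replicate 2 and mutant replicate 2 were the highest of their groups. The bases of that exon are not confined to Srsf3-201. They also lie in the intron of 2150 bases kept by Srsf3-204, and Srsf3-205 begins inside the exon, at chr17:29039518 in M21. The nonproductive share was 68.04, 65.9 and 67.4% in the wild-type and 68.6, 68.5 and 68.2% in the mutant tumours, higher in each mutant library by 1.29 percentage points on average (exact permutation p = 0.1, two-sided; log2 difference 0.0847 with a 95% interval of -0.21 to 0.38, limma adjusted p = 0.935). That order was lost in estimated counts, where the groups overlapped and averaged 57.5% in wild type and 57.2% in mutant tumours, and the log2 difference turned to -0.0202. Srsf3-205 has 910 bases in the files and 2110 in its later M21 version, so its TPM rests on a model that was later lengthened. Without transcripts under 1000 bases the share averaged 41.1%.

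Srsf11 lies at chr3:158010473-158036639 on the minus strand and has 19 transcripts, of which 11 are retained_intron. Srsf11-213 (retained_intron, 2952 bases) stood at 105, 84.5 and 101 TPM in the wild-type and 106, 96.9 and 99.1 TPM in the mutant tumours. Srsf11-203 (retained_intron, 1309 bases) stood at 63.1, 51.9 and 63.7 TPM in the wild-type and 58.4, 55.8 and 58.1 TPM in the mutant tumours. Srsf11-208 (retained_intron, 2415 bases) stood at 62.96, 46.7 and 63.6 TPM in the wild-type and 58.2, 49.6 and 52.2 TPM in the mutant tumours. The main coding form was of the same order as these long retained_intron forms. Srsf11-202 (protein_coding, 2654 bases) stood at 76.9, 90.5 and 84.8 TPM in the wild-type and 96.1, 99.1 and 94.2 TPM in the mutant tumours. It was higher in each mutant library (log2 difference 0.24, edgeR adjusted p = 0.438). Srsf11-210 (nonsense_mediated_decay, 397 bases) stood at 67.3, 54.98 and 61.1 TPM in the wild-type and 79.8, 66.3 and 75.9 TPM in the mutant tumours. It carries the poison exon shown above in only 397 bases. Srsf11-218 (retained_intron, 1074 bases) stood at 32.4, 23.1 and 32.3 TPM in the wild-type and 24.4, 24.9 and 28.1 TPM in the mutant tumours. Srsf11-211 (retained_intron, 521 bases) stood at 17.8, 33 and 21.8 TPM in the wild-type and 23.97, 38.4 and 27.9 TPM in the mutant tumours. Replicates 2 of both groups had the highest Srsf11-211. Srsf11-201 (protein_coding, 1643 bases) stood at 13.1, 15.3 and 11.97 TPM in the wild-type and 15.2, 12.1 and 14.99 TPM in the mutant tumours. Srsf11-205 (retained_intron, 437 bases) stood at 10.6, 7.63 and 8.48 TPM in the wild-type and 12.9, 7.48 and 8.12 TPM in the mutant tumours. Srsf11-214 (retained_intron, 474 bases) stood at 4.02, 2.46 and 3.73 TPM in the wild-type and 3.13, 4.69 and 4.77 TPM in the mutant tumours. The rest were near the limit of what is named here. Srsf11-204 (protein_coding, 3106 bases) stood at 1.80, 2.83 and 3.30 TPM in the wild-type and 3.62, 2.93 and 2.33 TPM in the mutant tumours. Srsf11-206 (nonsense_mediated_decay, 940 bases) stood at 1.53, 3.26 and 0.256 TPM in the wild-type and 0.883, 2.85 and 1.85 TPM in the mutant tumours. Srsf11-212 (nonsense_mediated_decay, 392 bases) stood at 1.58, 1.38 and 1.38 TPM in the wild-type and 1.01, 1.69 and 0.686 TPM in the mutant tumours. Srsf11-212 and the next one did not pass the filter on low counts. Srsf11-217 (protein_coding, 526 bases) stood at 0, 2.09 and 0.719 TPM in the wild-type and 1.25, 1.40 and 1.36 TPM in the mutant tumours. The nonproductive share of Srsf11 was 79.9, 73.6 and 77.9% in the wild-type and 75.9, 75.02 and 75.9% in the mutant tumours (log2 difference -0.13 with a 95% interval of -0.53 to 0.27, limma adjusted p = 0.924), with the mutant libraries inside the wild-type range.

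Srsf1 lies at chr11:88047373-88053755 on the plus strand. Srsf1-203 (retained_intron, 759 bases) stood at 226, 252 and 256 TPM in the wild-type and 246, 275 and 282 TPM in the mutant tumours. Srsf1-201 (protein_coding, 2948 bases) stood at 214, 181 and 242 TPM in the wild-type and 247, 267 and 228 TPM in the mutant tumours. Srsf1-205 (protein_coding, 5362 bases) stood at 155, 141 and 154 TPM in the wild-type and 169, 176 and 157 TPM in the mutant tumours. Srsf1-205 was higher in each mutant library (log2 difference 0.21, edgeR adjusted p = 0.457). Srsf1-203 keeps an intron of 378 bases that is spliced out in another protein_coding transcript. In Srsf1-201 the same bases are part of the last exon, after its stop codon. All of Srsf1-203 lies past that stop codon, so its place among the nonproductive forms rests on its annotation alone. Srsf1-204 (nonsense_mediated_decay, 896 bases) stood at 73.04, 65.02 and 81.4 TPM in the wild-type and 79.2, 84.8 and 89.5 TPM in the mutant tumours. Srsf1-206 (retained_intron, 645 bases) stood at 13.4, 8.83 and 11.9 TPM in the wild-type and 16.6, 8.66 and 9.08 TPM in the mutant tumours. Srsf1-202 (protein_coding, 1209 bases) stood at 6.92, 18.4 and 5.15 TPM in the wild-type and 7.58, 4.73 and 4.97 TPM in the mutant tumours. Wild-type replicate 2 stood apart with the highest Srsf1-202. The nonproductive share of Srsf1 was 45.4, 48.9 and 46.5% in the wild-type and 44.7, 45.2 and 49.4% in the mutant tumours (log2 difference -0.0311 with a 95% interval of -0.37 to 0.31, limma adjusted p = 0.988), with overlapping groups. In estimated counts it averaged 12.4%, against 46.7% of TPM, because all 4 nonproductive transcripts of Srsf1 are under 1000 bases and TPM weights short transcripts up.

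Srsf6 lies at chr2:162931528-162937121 on the plus strand. Srsf6-203 (protein_coding, 3527 bases) stood at 182, 165 and 209 TPM in the wild-type and 228, 223 and 204 TPM in the mutant tumours. Srsf6-204 (retained_intron, 2897 bases) stood at 102, 92.6 and 112 TPM in the wild-type and 114, 106 and 105 TPM in the mutant tumours. Srsf6-201 (nonsense_mediated_decay, 1666 bases) stood at 39.3, 39.3 and 27.2 TPM in the wild-type and 28.5, 29.2 and 44.4 TPM in the mutant tumours. Srsf6-204 keeps an intron of 1283 bases before the stop codon, and Srsf6-201 inserts the poison exon within that same intron. The coding form Srsf6-203 had an unadjusted p under 0.05 (log2 difference 0.28, edgeR adjusted p = 0.468), with wild-type replicate 3 inside the mutant range. The poison-exon form did not order by genotype, since mutant replicate 3 was highest and wild-type replicate 3 lowest. The nonproductive share was 43.6, 44.5 and 39.9% in the wild-type and 38.3, 37.7 and 42.2% in the mutant tumours (log2 difference -0.19 with a 95% interval of -0.55 to 0.16, limma adjusted p = 0.848). Its retained_intron share was 31.5, 31.2 and 32.1% in the wild-type and 30.6, 29.5 and 29.7% in the mutant tumours, lower in each mutant library, with a mean difference of -1.65 percentage points (exact permutation p = 0.1, two-sided; log2 difference -0.11 with a 95% interval of -0.41 to 0.19, limma adjusted p = 0.913).

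Srsf2 lies at chr11:116849901-116853094 on the minus strand and had the largest share difference of the members. Srsf2-201 (protein_coding, 1899 bases) stood at 325, 289 and 368 TPM in the wild-type and 389, 391 and 352 TPM in the mutant tumours. Srsf2-203 (retained_intron, 1814 bases) stood at 115, 105 and 122 TPM in the wild-type and 104, 109 and 103 TPM in the mutant tumours. Srsf2-203 keeps an intron of 1059 bases, which lies after the stop codon of Srsf2-201, and the groups overlapped for both transcripts. As for Srsf1-203, the place of Srsf2-203 among the nonproductive forms rests on its annotation alone. It is the only retained_intron transcript of Srsf2 and makes up most of the nonproductive share. The nonproductive share was 26.1, 22.2 and 25.5% in the wild-type and 20.2, 19.9 and 20.8% in the mutant tumours, lower in each mutant library, with a mean difference of -4.33 percentage points (exact permutation p = 0.1, two-sided; log2 difference -0.36 with a 95% interval of -0.72 to 0.0130, limma adjusted p = 0.791). The retained_intron share alone was 24.9, 21.6 and 24.6% in the wild-type and 19.1, 17.9 and 19% in the mutant tumours (log2 difference -0.43 with a 95% interval of -0.79 to -0.0785, limma adjusted p = 0.805). In estimated counts, the retained_intron share was likewise lower in each mutant library, at 23.99, 23.6 and 22.9% in the wild-type and 19.3, 19.4 and 20.3% in the mutant tumours. The decay form was rare. Srsf2-204 (nonsense_mediated_decay, 620 bases) stood at 4.90, 1.75 and 3.996 TPM in the wild-type and 5.62, 11.1 and 8.90 TPM in the mutant tumours. It was higher in each mutant library (log2 difference 1.31, edgeR adjusted p = 0.454), and its mean estimated count was 38.6 reads. Srsf2-205 (processed_transcript, 433 bases) stood at 14.8, 89.01 and 0 TPM in the wild-type and 46.9, 95.3 and 77.8 TPM in the mutant tumours. This short form without a coding annotation varied widely between libraries and was listed at 0 in wild-type replicate 3, and it enters the denominator of the share. Srsf2-206 (protein_coding, 1326 bases) stood at 0.974, 1.74 and 0.950 TPM in the wild-type and 0.856, 1.16 and 0.966 TPM in the mutant tumours. With protein_coding transcripts alone as the denominator the log2 difference of the nonproductive share was -0.25.

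Srsf5 lies at chr12:80945504-80950507 on the plus strand. Srsf5-212 (retained_intron, 2720 bases) stood at 154, 164 and 185 TPM in the wild-type and 179, 185 and 187 TPM in the mutant tumours. Srsf5-201 (protein_coding, 1527 bases) stood at 184, 134 and 175 TPM in the wild-type and 163, 153 and 179.7 TPM in the mutant tumours. Srsf5-202 (protein_coding, 1498 bases) stood at 78.7, 66.8 and 85.7 TPM in the wild-type and 84.5, 82.1 and 89.9 TPM in the mutant tumours. The main intron-keeping form, Srsf5-212, was near the main coding form in level, and it keeps an intron of 1229 bases before the stop codon. Srsf5-211 (processed_transcript, 538 bases) stood at 46.9, 35.9 and 47.5 TPM in the wild-type and 41.4, 36.9 and 41.6 TPM in the mutant tumours. Srsf5-205 (protein_coding, 1568 bases) stood at 22.4, 15.98 and 22.1 TPM in the wild-type and 27.2, 22.8 and 22.3 TPM in the mutant tumours. Srsf5-209 (retained_intron, 3482 bases) stood at 4.16, 5.30 and 5.77 TPM in the wild-type and 6.80, 5.72 and 5.33 TPM in the mutant tumours. Srsf5-207 and Srsf5-209 keep the same intron of 1229 bases. Srsf5-206 (processed_transcript, 886 bases) stood at 0.946, 6.96 and 4.26 TPM in the wild-type and 2.49, 7.10 and 4.36 TPM in the mutant tumours. Srsf5-207 (retained_intron, 2919 bases) stood at 2.62, 3.52 and 2.58 TPM in the wild-type and 5.45, 3.67 and 3.01 TPM in the mutant tumours. The nonproductive share of Srsf5 was 32.5, 40.1 and 36.7% in the wild-type and 37.4, 39.1 and 36.6% in the mutant tumours (log2 difference 0.0819 with a 95% interval of -0.31 to 0.47, limma adjusted p = 0.957), with overlapping groups. In estimated counts it averaged 54.6%, above its 37.1% of TPM, since Srsf5-212 is longer than the coding forms. Decay RNA of Srsf5 was near 0: Srsf5-208 averaged 0.439 TPM and its share was not tested.

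Srsf4 lies at chr4:131873617-131901706 on the plus strand and was mostly coding. Srsf4-202 (protein_coding, 2257 bases) stood at 79.7, 82.4 and 84.2 TPM in the wild-type and 86.2, 96.05 and 87.5 TPM in the mutant tumours. It was higher in each mutant library (log2 difference 0.17, edgeR adjusted p = 0.508). Srsf4-204 (nonsense_mediated_decay, 980 bases) stood at 7.84, 5.21 and 8.34 TPM in the wild-type and 9.06, 6.89 and 6.54 TPM in the mutant tumours. Srsf4-203 (nonsense_mediated_decay, 851 bases) stood at 7.58, 5.29 and 3.95 TPM in the wild-type and 5.09, 7.06 and 7.79 TPM in the mutant tumours. Srsf4-201 (retained_intron, 3100 bases) stood at 5.59, 4.22 and 6.64 TPM in the wild-type and 8.18, 4.92 and 4.81 TPM in the mutant tumours. These 3 nonproductive forms overlapped between the groups. The nonproductive share was 20.9, 15.2 and 18.4% in the wild-type and 20.6, 16.4 and 17.95% in the mutant tumours (log2 difference 0.0198 with a 95% interval of -0.46 to 0.50, limma adjusted p = 0.998). Srsf7 lies at chr17:80200080-80207307 on the minus strand. Srsf7-201 (protein_coding, 2279 bases) stood at 265, 236 and 276 TPM in the wild-type and 271, 277 and 256 TPM in the mutant tumours. Its groups overlapped, with mutant replicate 3 below 2 of the wild-type libraries. The 13 member transcripts not named by level averaged under 1 TPM each and 3.27 TPM together.

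**Figure D3:**
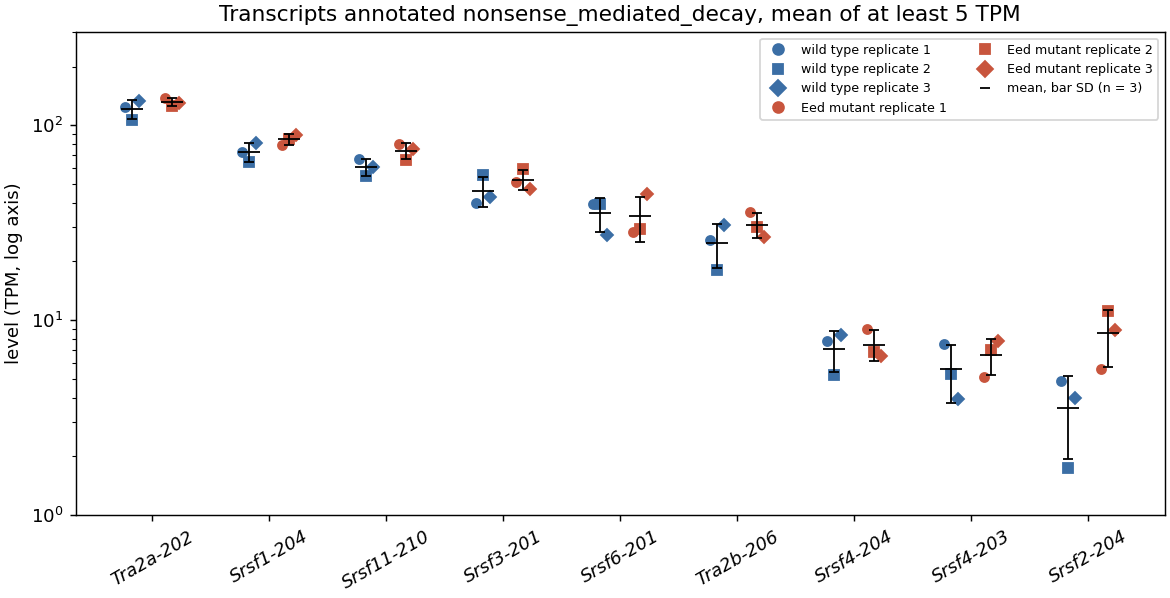
Level (TPM, log axis) in every library of the transcripts annotated nonsense_mediated_decay that averaged at least 5 TPM, wild type in blue and Eed mutant in red, with mean and SD in black. Tra2a-202 is the most abundant at 107 to 138 TPM, and Srsf2-204 is the only one whose groups do not overlap. The share of all transcripts without overlap is not given here.

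Across transcripts, 55 of the 69 passed the filter on low counts. Of these 44 were above 0 and 11 below, beside 48.6% of all 50890 tested transcripts above 0. They are isoforms of 10 genes whose totals were all above 0, so they are not separate evidence. The edgeR test called 0 of them (0% of 50890 transcripts). At an unadjusted p under 0.05 there were 7, all higher in the mutant tumours, beside 9.81% of all transcripts in either direction and 5.1% in the higher direction. The 7 became 2 when mutant replicate 1 or 2 was left out, 4 without wild-type replicate 1, 12 without the third wild-type library and 2 under a term for the file code. With a library left out, 3.1% to 5.5% of all transcripts were higher at an unadjusted p under 0.05. With the file code it was 4.45%. Those 7 were Tra2b-204, Tra2b-201, Srsf11-202, Srsf2-204, Srsf1-205, Srsf6-203 and Srsf4-202, of which Srsf2-204 is a decay form and the others are protein_coding. All but Srsf6-203 had groups that did not overlap in TPM. Among genes 25% had no overlap in either direction, and the share over all transcripts is not given here. The median log2 difference was 0.21 over 19 protein_coding, 0.23 over 11 decay and 0.13 over 21 retained_intron transcripts tested, against 0.01, -0.01 and -0.04 for all tested transcripts of the same kinds. The difference between the kinds was not tested over the set.

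The share of nonproductive RNA did not pass the test in any member. The share was compared by limma on the log2 ratio of nonproductive to all other TPM, 0.5 TPM being added to each. It called 0 of 9 members and 0 of 6008 genes (0%), and 0 members had an unadjusted p under 0.05, beside 6.08% of all genes. The log2 ratio was lower in the mutant tumours for 6 members and higher for 3 (Srsf3, Srsf4 and Srsf5), with a median of -0.0884, while over all genes the median was -0.0386, with 44% above and 56% below 0. The directions of Srsf2, Srsf6 and Tra2b held under all 16 alternatives, and those of the other 6 members turned under at least 1. Groups of the share did not overlap for Srsf2 and Srsf3, 2 of 9 members, beside 12% of all genes tested. For the decay share 0 of 8 members were called, beside 0.0461% of 2168 genes, which is the single gene Btbd10 (log2 difference 3.16, limma adjusted p = 0.0192), and 5 members were above 0 beside 49.7% of all genes. The Btbd10 call was lost without any 1 of the 6 libraries (limma adjusted p = 0.0608 to 0.174), and with the replicate block, the file code or the class-by-group interaction. For the decay share 0 members had an unadjusted p under 0.05, beside 6% of all genes. For the retained_intron share 0 of 9 were called (0% of 5416 genes), 7 were below 0 beside 57.5% of all genes, and the groups of Srsf2, Srsf6 and Tra2b did not overlap, each lower in the mutant tumours, beside 11.8% of all genes in either direction and 7.46% in the lower one. The retained_intron share of Srsf2 was the only member share with an unadjusted p under 0.05, which 6.06% of all genes had. The 95% intervals of the nonproductive log2 ratio ran from -0.21 to 0.38 in the narrowest case (Srsf3) to -0.46 to 0.50 in the widest (Srsf4).

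**Figure D4:**
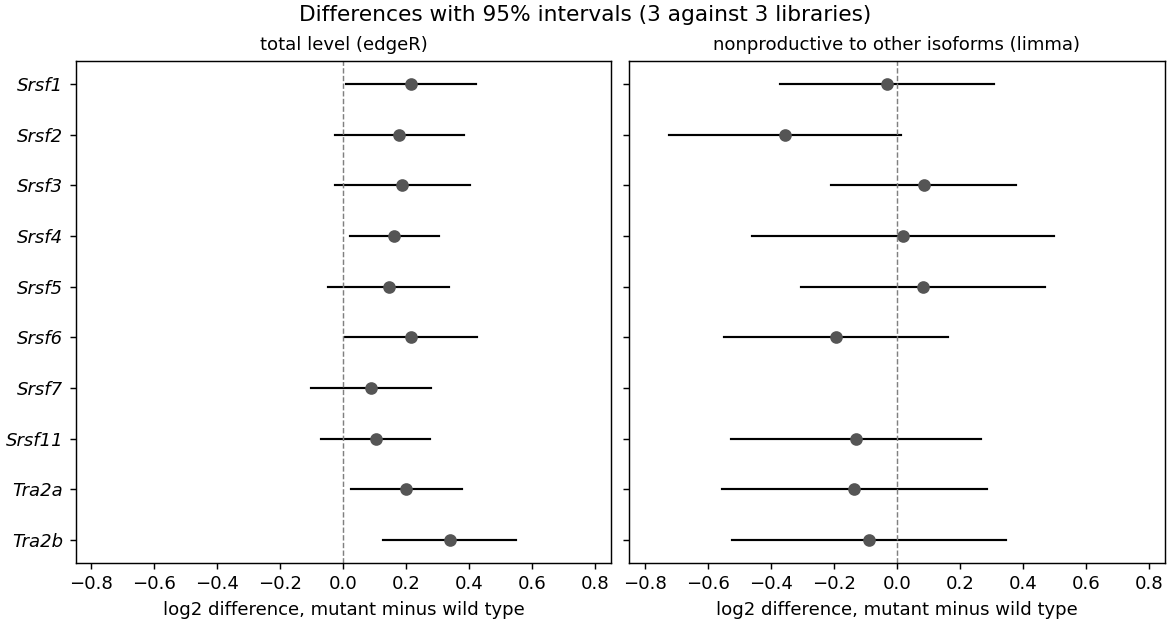
Log2 differences, mutant minus wild type, with 95% intervals from 3 against 3 libraries, for the total level of each gene (left, edgeR) and for the ratio of nonproductive to other isoforms (right, limma; Srsf7 has no nonproductive transcript). Total levels all lie above 0, from 0.09 to 0.34, whereas the ratios lie on both sides of 0 and every interval on the right includes 0.

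The unit decided how large the share was for part of the members. Estimated counts gave averages of 12.4% for Srsf1, 57.4% for Srsf3, 12.8% for Srsf4, 9.29% for Tra2b and 65.9% for Srsf11, all below their share of TPM. They gave 64.3% for Tra2a and 54.6% for Srsf5, above their share of TPM, and 22.01% for Srsf2 and 35.95% for Srsf6. With transcripts under 1000 bases left out, a setting chosen after seeing the data, TPM shares of Tra2a and Srsf6 were 59.6% and 41.1%, while those of Srsf4 and Srsf1 were 6.25% and 0%. Short annotated transcripts are often incomplete models, and whether these 19 exist as separate RNAs was not tested.

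**Figure D5:**
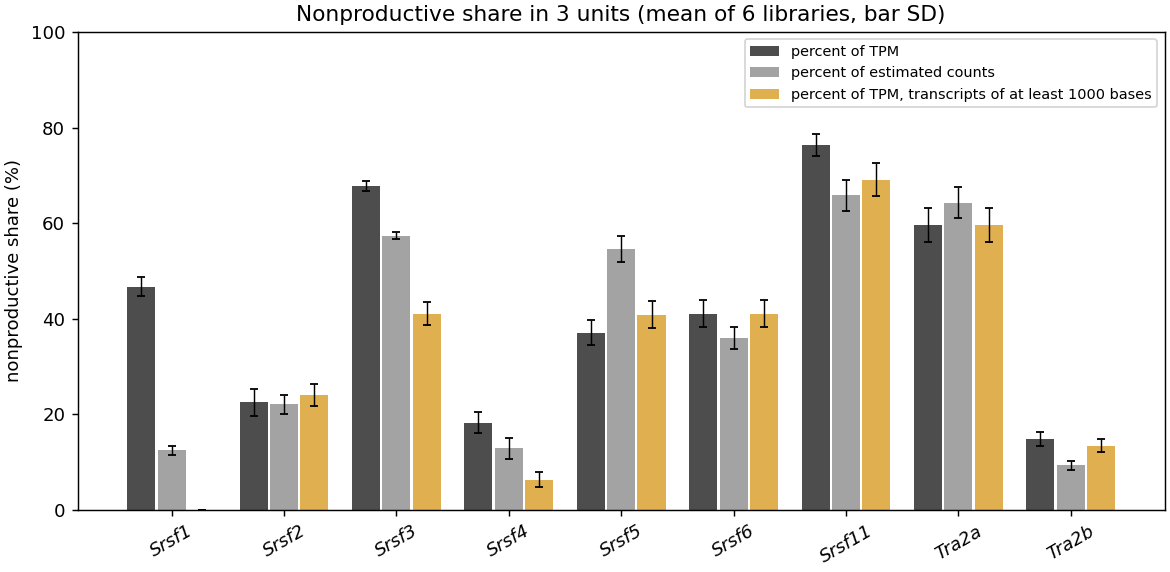
Mean nonproductive share over 6 libraries (percent, bars with SD) as a percent of TPM, of estimated counts, and of TPM over transcripts of at least 1000 bases. Tra2a, Srsf2 and Srsf6 differ little between units, while Srsf1 goes from 46.7% of TPM to 12.4% of counts and to 0% without short transcripts.

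Other genes of the splicing pathway gave a background for the members, with 0 called by edgeR in each of 7 lists. Counts of these lists at an unadjusted p under 0.05 are to be read beside 9.29% of all genes higher and 8.78% lower, and DESeq2 calls beside 2.96% higher. Where a library is left out, the counts stand beside 5.02% to 10.1% of all genes higher and 4.37% to 9.75% lower. Of 33 hnRNP proteins, which often oppose SR proteins at exons, 11 (33.3%) had an unadjusted p under 0.05 and were higher, 0 were lower, and DESeq2 called 3 (Ptbp3, Ptbp1 and Hnrnpf). The 11 became 4 without wild-type replicate 2 or mutant replicate 1, 5 without wild-type replicate 1 and 3 without mutant replicate 2. Ptbp1, a repressor of neuronal exons, stood at 394, 319.6 and 396 CPM in the wild-type and 471, 457 and 475 CPM in the mutant tumours (log2 difference 0.34, edgeR adjusted p = 0.170, DESeq2 adjusted p = 0.0475). Ptbp3 stood at 98.9, 95.9 and 115 CPM in the wild-type and 143, 139 and 126 CPM in the mutant tumours (log2 difference 0.40, edgeR adjusted p = 0.149, DESeq2 adjusted p = 0.0150) and Hnrnpf at 447, 382 and 477 CPM in the wild-type and 566, 559.8 and 520.3 CPM in the mutant tumours. In each of these genes wild-type replicate 2 was the lowest library, as in most members. Of 27 other SR and SR-related genes 7 (25.9%) were higher at an unadjusted p under 0.05 and 0 lower, and the 7 became 3 without mutant replicate 1 and 4 without mutant replicate 2. Srsf10, which acts as a repressor when dephosphorylated, stood at 312, 286 and 337 CPM in the wild-type and 419, 390.4 and 351 CPM in the mutant tumours (log2 difference 0.31, edgeR adjusted p = 0.181, DESeq2 adjusted p = 0.0728). Ppig and Scaf4 had log2 differences of 0.23 and 0.19. None of these SR-related genes was called by DESeq2.

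Of 11 kinases of SR proteins 1 (9.09%, near the 9.29% of all genes) was higher at an unadjusted p under 0.05. It was Clk2, which phosphorylates SR proteins in the nucleus, at 80.9, 77.3 and 79.8 CPM in the wild-type and 90.4, 84.2 and 87.8 CPM in the mutant tumours (log2 difference 0.14, edgeR adjusted p = 0.261, DESeq2 adjusted p = 0.352). The count of kinases became 0 without wild-type replicate 1, wild-type replicate 2, mutant replicate 1 or mutant replicate 3. Srpk1 and Dyrk1a had log2 differences of 0.15 and 0.0925. Of 24 genes of the nonsense-mediated decay and termination machinery 5 (20.8%) were higher at an unadjusted p under 0.05, 8 without wild-type replicate 3, 0 were lower, and DESeq2 called 3. These were the release factors Gspt1 (log2 difference 0.29) and Etf1 (0.36) and the cap-binding protein Ncbp1 (0.26). Etf1 stood at 170.1, 149 and 181 CPM in the wild-type and 219, 223 and 201 CPM in the mutant tumours (log2 difference 0.36, edgeR adjusted p = 0.151, DESeq2 adjusted p = 0.0242), with wild-type replicate 2 lowest. Of 42 core spliceosome genes 7 (16.7%) were higher and 0 lower at an unadjusted p under 0.05, with 4 higher without mutant replicate 1 or mutant replicate 2 and 11 without wild-type replicate 3. DESeq2 called Snrpd1, a core protein of the spliceosomal snRNPs, at 81.5, 77.6 and 87.1 CPM in the wild-type and 110.1, 105 and 101 CPM in the mutant tumours (log2 difference 0.36, edgeR adjusted p = 0.130, DESeq2 adjusted p = 0.00455). Sf3a2 and Sf3b4 of the U2 snRNP had log2 differences of 0.31 and 0.27.

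Of 14 genes for mRNA export and partners of SR proteins 2 (14.3%) were higher and 0 lower at an unadjusted p under 0.05, and 1 was higher when replicate 1 or 2 of either genotype was left out. DESeq2 called Alyref, an mRNA export adaptor, at 61.6, 61.1 and 69.2 CPM in the wild-type and 85.4, 89.6 and 79.01 CPM in the mutant tumours (log2 difference 0.40, edgeR adjusted p = 0.134, DESeq2 adjusted p = 0.00551). Tnpo3, the importin of SR proteins, and Thoc1 had log2 differences of 0.15 and 0.15. The 31 tested tissue-specific splicing regulators had members on both sides, with 4 (12.9%) higher and 5 (16.1%) lower at an unadjusted p under 0.05, and DESeq2 called 2 (Rbm3 and Qk). The 4 became 2 without mutant replicate 3, and the 5 became 1 without mutant replicate 1 or mutant replicate 3 and 3 without wild-type replicate 2. Rbm3, a cold-inducible RNA-binding protein, stood at 273, 294 and 315 CPM in the wild-type and 515, 484 and 392 CPM in the mutant tumours (log2 difference 0.66, edgeR adjusted p = 0.130, DESeq2 adjusted p = 6.41e-05). Qk, a regulator of glial splicing, had a log2 difference of 0.29, and Srrm3, a neuronal microexon regulator, of -0.53. The median log2 difference was 0.14 for hnRNP proteins, 0.11 for the core spliceosome, 0.10 for other SR-related genes, 0.09 for the kinases, 0.08 for export, 0.07 for the decay machinery and -0.06 for tissue-specific regulators, beside 0.18 for the members and -0.01 for all genes. The nonproductive share of these genes had a median log2 difference between -0.11 and -0.00376 in each of the 7 lists, and 0 were called.

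The genes most like the members in isoform use were sought among 5999 other genes with a tested share. The measure was the Pearson correlation over the 6 libraries between the log2 nonproductive ratio of a gene and the mean of that ratio over the 9 members. The 5 highest were Nedd4l (0.995), Guf1 (0.995), Ehd1 (0.990), Kcnab2 (0.985) and Mpp5 (0.980). At the same limit in size, 58 genes reached 0.9, and 71 genes had a correlation of -0.9 or lower. The members' mean ratio was -0.40, -0.58 and -0.43 in the wild-type and -0.54, -0.60 and -0.53 in the mutant tumours, on the log2 scale. It was highest in wild-type replicates 1 and 3, while wild-type replicate 2 lay with the mutant libraries. With 6 points that share library, depth and annotation this is a description of these libraries only.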

How the data were processed

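RNA-seq was measured in 6 mouse medulloblastoma samples. The authors deposited estimated counts and TPM (length-scaled abundance) per transcript for each sample, made with kallisto 0.43.1 against GRCm38 (mm10), per the submitters' processing notes, without pooling replicates. Strand, read length, RNA selection and the GENCODE release are not given in the sources used. Reads shared by isoforms are divided by estimation, so isoform levels are less certain than gene levels.

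Estimated counts were rounded, after summing per gene for the gene level, and compared with edgeR 4.0.16 (TMM, default filter, quasi-likelihood test, two-sided) in R 4.3.3. Shares were compared with limma 3.58.1 on log2((class TPM + 0.5)/(other TPM + 0.5)) for genes with a mean of at least 5 TPM and at least 0.5 TPM in the class. A log2 difference on this scale understates changes of low classes. All fits covered the whole table, with Benjamini-Hochberg adjustment at 0.05. The edgeR fit of gene levels and the limma and class-by-group fits of the nonproductive share were also run on simulated data. The other fits were not. DESeq2 1.42.0, other scalings, filters, denominators, pseudocounts, a replicate block, the file code and leaving out each library were the alternatives. Transcripts averaging at least 1 TPM are named, with up to 3 genes of smallest p per pathway list and the 5 genes most like the members. Naming DESeq2 calls, Srsf5-208, the Srsf6 exon and Btbd10 was decided after seeing the values. The members and lists were chosen with earlier results of these data known. Depth was 26186236 to 26425111 estimated counts per library, and 3 counts correspond to 0.114 CPM. Protein sequences were not analysed here.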

Additional observations from a re-analysis of the deposited data

How the results depend on the processing

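Total levels of the 10 genes stayed above 0 in all 130 alternative values, and none passed the edgeR test under any scaling or filter. DESeq2 called 923 genes (524 higher, 399 lower) where edgeR called 0, among them 1 member, Tra2b (log2 difference 0.34). It also called 927 of the 95936 transcripts fitted (576 higher, 351 lower), among them 1 of a member, Tra2b-204 (0.38). Without a filter on low counts edgeR called 3 genes. Leaving out a library gave 0 to 9 called genes, 9 without mutant replicate 2 and 4 without wild-type replicate 2. No label says whether replicate numbers pair the samples. Same-number correlations of the deviations from the group mean were 0.247, 0.110 and -0.142. Wild-type replicate 2 correlated best with mutant replicate 3. With 3 libraries per group these correlations cannot decide whether the samples are paired. The replicate block called 273 genes (189 higher, 84 lower) and 0 decay shares. The single called decay share, of Btbd10, was lost (0 called) under the class-by-group interaction, the replicate block and the file code. The stricter filter also called 0, but Btbd10 has no value there, since the filter asks for at least 2 TPM in the class. Leaving out a library gave 0 to 1 called decay shares (another gene, without wild-type replicate 1), as it did for the retained_intron share. The cause of these changes was not tested.

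Directions of the uncalled shares were less stable, and turned in 14 of 143 alternative values for the nonproductive share, 14 of 125 for the decay share and 11 of 143 for the retained_intron share. In estimated counts and in the class-by-group interaction Srsf3 turned in all 3 shares, to -0.0202 and -0.0201 (nonproductive), 0.0446 and 0.0448 (decay) and -0.0291 and -0.0291 (retained_intron). Over protein_coding RNA alone its decay share was 0.0350. Centring the libraries on their median turned Srsf1 (0.0134, nonproductive) and Srsf4 (0.00870, retained_intron). With the file code as a term, Srsf5 (-0.0668), Srsf11 (0.0108) and Tra2a (0.00192) turned in the nonproductive share, Tra2a in the decay share (0.0331) and Srsf5 in the retained_intron share (-0.0557). Without transcripts under 1000 bases, Srsf3 (-0.0688) and Srsf4 (-0.0355) turned in the nonproductive, Srsf2 (-0.28) and Srsf3 (0.0741) in the decay and Srsf3 (-0.13) in the retained_intron share. Srsf1 was then left without a value. Leaving out a library gave ranges across 0 for the nonproductive share of Srsf1 (-0.12 to 0.0252), Srsf4 (-0.12 to 0.15) and Srsf5 (-0.0422 to 0.20), the decay share of Srsf3 (-0.17 to 0.21), Srsf4 (-0.0851 to 0.19) and Tra2b (-0.16 to 0.19), and the retained_intron share of Srsf1 (-0.13 to 0.0223), Srsf3 (-0.0252 to 0.15), Srsf4 (-0.30 to 0.11) and Srsf5 (-0.0319 to 0.20). Depth limits the rare forms: a member transcript at 1 TPM rests on few reads, and intervals cover only the spread of these 6 libraries.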

Other observations

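Over all transcripts in the files, the retained_intron kind held 7.57% to 7.69% of TPM in the wild-type and 7.37% to 7.48% in the mutant tumours, without overlap. The nonsense_mediated_decay kind held 2.43% to 2.48% in the wild-type and 2.49% to 2.51% in the mutant tumours, also without overlap. These whole-library values were not tested. Over 5416 genes the median retained_intron share was 15.4% to 15.5% in the wild-type libraries and 14.6% to 15.2% in the mutant ones.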
